A study of Mus musculus with 73 samples.

Results

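A set of 10 genes of purine nucleoside breakdown and transport was followed through the mouse jejunum: *Ada*, *Nt5e*, *Slc28a2*, *Gm14085*, *Slc28a1*, *Slc29a1*, *Pnp*, *Xdh*, *Adk* and *Enpp3*. They were chosen by name, with earlier results of these data known, and all 10 were present among the 17399 genes of the table of epithelial samples. The epithelial cells came from 4 male mice given diphtheria toxin (DT) and 4 control mice given vehicle, aged 4 months and killed 48 h later. All 8 animals carried the Lgr5(GFP-ires-DTR/+) allele, which places the toxin receptor and GFP under the *Lgr5* locus, so the receptor was present in control animals too, and every *Lgr5*-expressing cell can carry it, crypt stem cells as well as villus tip telocytes. A further 29 laser capture microdissection (LCM) samples of stroma from crypt, villus bottom, villus center and villus tip, from 5 C57BL/6 males aged 3 months, and sorted single cells from 8 mice of the same age gave the location of the same genes. The comparison of DT with control asks which epithelial genes change when the *Lgr5*+ cells are removed, and here which steps beyond *Ada*, *Nt5e* and *Slc28a2* changed with them.

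Extracellular nucleotides are cut to AMP at the cell surface by enzymes such as ENPP3, and the ecto-5′-nucleotidase encoded by *Nt5e* turns AMP into adenosine. Concentrative transporters of the SLC28 family bring nucleosides into the enterocyte from the lumen, and the equilibrative transporter encoded by *Slc29a1* moves them down their gradient. Inside the cell, adenosine is either deaminated to inosine by ADA or phosphorylated back to AMP by the kinase encoded by *Adk*. Inosine is then split by PNP, and the xanthine oxidoreductase encoded by *Xdh* makes the end product urate.

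The genes lie on 6 chromosomes of GRCm38 (GENCODE M21), all annotated as protein coding. On chromosome 2, *Ada* spans 163726584 to 163750239 on the minus strand, *Slc28a2* spans 122426477 to 122461137 on the plus strand, and *Gm14085*, named Slc28a2b in RefSeq, spans 122484941 to 122528040 on the same strand, 23803 bases further on. *Nt5e* lies on chromosome 9 from 88327197 to 88372092 and *Slc28a1* on chromosome 7 from 81114799 to 81170416. *Slc29a1* lies on chromosome 17 from 45585200 to 45599606 and *Xdh* on the same chromosome from 73883895 to 73950196. *Pnp* lies on chromosome 14 from 50931082 to 50965237, *Adk* on the same chromosome from 21052574 to 21448569, and *Enpp3* on chromosome 10 from 24772406 to 24842823. The whole of *Pnp2* (8758 bases) lies inside *Pnp*.

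*Slc28a2* and *Gm14085* are near copies, and their coding sequences, each 1980 bases long, were identical at 1876 of 1979 aligned bases (94.8%). Of the 3681 words of 60 bases in the longest *Gm14085* transcript, 1309 (35.6%) also occurred in *Slc28a2*. In its last 500 bases, 248 of 441 such words did. Reads of these genes may therefore have been assigned to either one, and their separate counts are uncertain. The first 150 coding bases, from chr2:122441575 and chr2:122486660 onward on the plus strand, read along the spliced transcripts, are shown because they hold 12 differences, marked in capitals, by which the transcripts can be told apart. Whether the counted reads covered these bases was not tested.
*Slc28a2*, bases 1 to 150: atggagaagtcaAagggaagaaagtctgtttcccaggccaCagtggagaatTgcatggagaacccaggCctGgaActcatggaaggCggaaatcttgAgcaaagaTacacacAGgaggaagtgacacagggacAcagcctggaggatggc
*Gm14085*, bases 1 to 150: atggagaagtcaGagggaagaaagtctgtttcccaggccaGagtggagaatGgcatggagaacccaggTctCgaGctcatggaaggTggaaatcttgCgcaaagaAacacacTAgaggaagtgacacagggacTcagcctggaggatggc

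The promoters of the 4 genes that lay lowest after DT are shown from RefSeq (GRCm38.p6), each covering 250 bases before to 50 bases after the transcription start. Promoter sequences were matched for 9 of the 10 genes. The capitals mark the only match found in them to 4 searched motifs, a CDX match (TTTATNG) on the opposite strand 239 bases before the start of *Slc28a2*.
*Ada*, chr2:163750190-163750489, minus strand: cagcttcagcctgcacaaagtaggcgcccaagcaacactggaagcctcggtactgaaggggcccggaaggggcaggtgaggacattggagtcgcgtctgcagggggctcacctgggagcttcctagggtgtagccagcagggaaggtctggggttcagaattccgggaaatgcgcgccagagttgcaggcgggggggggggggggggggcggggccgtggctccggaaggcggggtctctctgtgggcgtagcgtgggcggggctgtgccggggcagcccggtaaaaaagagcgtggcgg
*Nt5e*, chr9:88327359-88327658, plus strand: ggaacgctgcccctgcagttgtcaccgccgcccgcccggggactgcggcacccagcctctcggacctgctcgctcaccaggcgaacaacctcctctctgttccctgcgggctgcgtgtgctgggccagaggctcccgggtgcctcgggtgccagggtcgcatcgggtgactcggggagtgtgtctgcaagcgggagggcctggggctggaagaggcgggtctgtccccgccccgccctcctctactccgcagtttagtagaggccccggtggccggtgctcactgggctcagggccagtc
*Slc28a2*, chr2:122426185-122426484, plus strand: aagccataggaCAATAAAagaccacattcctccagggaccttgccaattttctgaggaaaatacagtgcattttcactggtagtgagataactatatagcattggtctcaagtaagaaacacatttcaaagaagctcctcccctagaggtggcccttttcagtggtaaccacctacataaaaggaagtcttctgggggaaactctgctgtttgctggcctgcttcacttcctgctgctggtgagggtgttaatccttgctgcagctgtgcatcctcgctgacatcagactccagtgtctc
*Gm14085*, chr2:122484691-122484990, plus strand: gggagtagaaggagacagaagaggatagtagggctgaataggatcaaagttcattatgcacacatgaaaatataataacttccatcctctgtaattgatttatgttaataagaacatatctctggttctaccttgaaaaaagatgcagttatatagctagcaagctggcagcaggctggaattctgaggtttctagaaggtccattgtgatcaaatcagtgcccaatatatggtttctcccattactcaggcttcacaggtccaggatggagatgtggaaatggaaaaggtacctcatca
The promoters of *Ada* and *Nt5e* were 68% and 71% G and C, whereas those of *Slc28a2* and *Gm14085* were 46.7% and 40%. The searched letters, on both strands, were TGANTCA for AP-1, TTTATNG for CDX, CAAAGTCCA for HNF4 and AGATAAG for GATA, and 7.81%, 10.9%, 0.475% and 3.04% of the 32851 promoters held them.

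The epithelial samples held 748458 to 4210158 UMIs. After a filter on low counts 8986 genes were tested, and 32 passed an adjusted p of 0.05 in edgeR's quasi-likelihood test with batch as a term, 30 of them lower and 2 higher in DT. Samples 1 and 2 of each group formed batch a and samples 3 and 4 batch b. The median log2 fold change over all tested genes was 0.0041. *Lgr5* itself, measured across all epithelial cells, was 10.7 to 77.3 CPM (UMIs scaled to a common library size) in control and 6.30 to 47.2 CPM in DT samples, with a log2 fold change of -0.75 that did not pass (adjusted p = 0.258).

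Of the 10 genes, *Ada*, *Nt5e* and *Gm14085* fell after DT at an adjusted p of 0.05 (edgeR, all genes), where 0.334% of all tested genes did. At the wider limit of 0.2, which 1.66% of all tested genes passed as lower, *Slc28a2* and *Enpp3* were added, which made 5 of 10. The fall of *Ada*, *Nt5e* and *Slc28a2* was known from the study before the genes were chosen, so these shares are a description. *Gm14085* is a near copy of *Slc28a2*, with which it may share reads. *Slc28a1*, *Xdh*, *Pnp*, *Slc29a1* and *Adk* passed neither limit in edgeR. By DESeq2 *Slc28a1* (adjusted p = 0.0767) and *Xdh* (0.191) were under 0.2, and with no filter on low counts in edgeR both were under 0.05 (0.0013 and 0.0488).

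**Figure D1:**
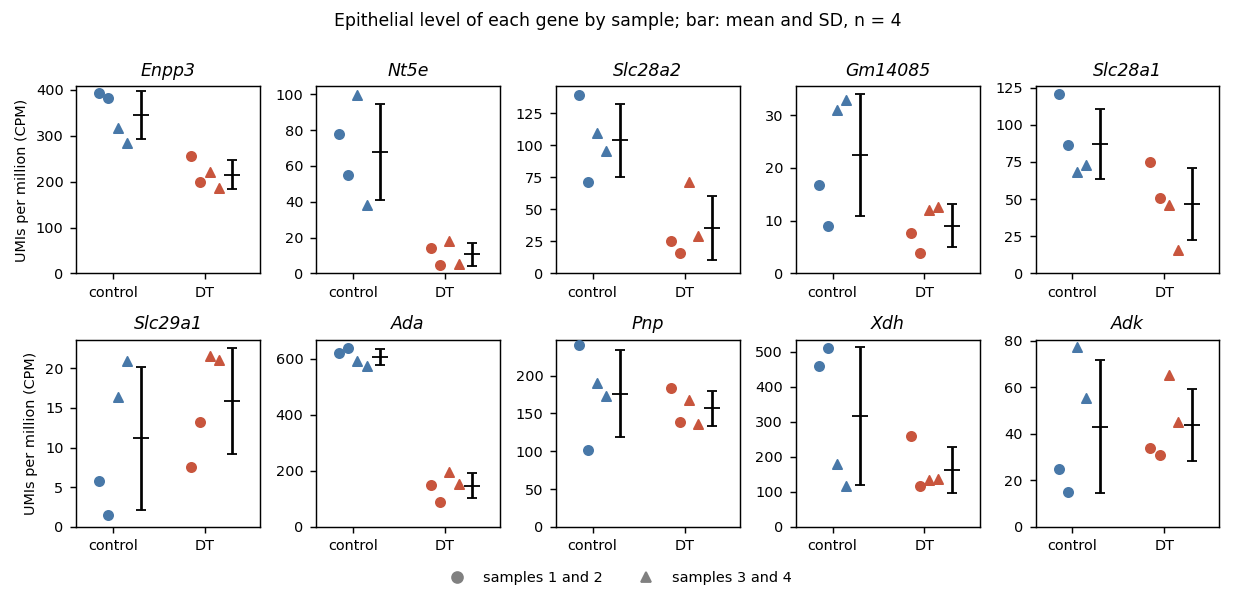
Level of each of the 10 genes in CPM (vertical axis, from 0) in 4 control (blue) and 4 DT (red) epithelial samples; circles are samples 1 and 2, triangles samples 3 and 4, and the bars give mean and SD. *Ada*, *Nt5e* and *Enpp3* show no overlap between groups, while *Pnp*, *Slc29a1* and *Adk* overlap widely.

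*Ada* was measured at 621, 641, 591 and 575 CPM in control samples 1 to 4 and at 150.2, 89.0, 198 and 153 CPM in DT samples 1 to 4. The lowest control sample was well above the highest DT sample. The log2 fold change was -2.06 (SE 0.24, 95% interval -2.59 to -1.53, adjusted p = 0.0106), and 23.9% of the control level remained. The fall was present in both batches, with log2 ratios of the group means of -2.40 in batch a and -1.73 in batch b. *Ada* passed whichever of the 8 samples was left out, with an adjusted p of 0.0030 to 0.0448. With the replicate number as a block, the log2 fold change was -2.09 and the adjusted p rose to 0.0624, and 3 genes in all passed in place of 32.

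*Nt5e* was measured at 77.7, 55.0, 99.6 and 38.4 CPM in control and at 14.3, 4.92, 18.1 and 5.47 CPM in DT samples. No DT sample reached the lowest control sample. Its log2 fold change was -2.66 (SE 0.44, 95% interval -3.63 to -1.68, adjusted p = 0.0381), with 15.9% of the control level remaining. The fall had similar log2 ratios in the batches, -2.78 in a and -2.55 in b, and it passed with the replicate number as a block (adjusted p = 0.0113). It did not pass without control 1 (adjusted p = 0.133), control 2 (0.152), control 3 (0.137), DT 2 (0.168) or DT 4 (0.0505), while the log2 fold change stayed between -3.20 and -2.30.

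*Slc28a2*, a concentrative transporter that prefers purine nucleosides, was at 139, 71.3, 109 and 95.6 CPM in control and 25.3, 16.2, 71.7 and 29.02 CPM in DT samples. DT 3 lay just above control 2, and the other 3 DT samples lay below every control sample. On the log2 scale the fold change was -1.61 (SE 0.37, 95% interval -2.43 to -0.79, adjusted p = 0.125), so it did not pass 0.05. Without DT 3 the adjusted p was 0.0391, and by DESeq2 it was 0.0030. The log2 ratio was -2.34 in batch a and -1.03 in batch b, a difference with an unadjusted p of 0.0472 and an adjusted p of 1.00 (edgeR interaction term).

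*Gm14085*, its near copy, was at 16.7, 8.92, 31.0 and 32.9 CPM in control and at 7.59, 3.93, 12.1 and 12.6 CPM in DT samples. The groups overlapped only because batch a was lower than batch b in both. Within each batch DT was below control, but batch a rested on 23 and 6 UMIs in control and 9 and 8 UMIs in DT samples. With batch in the model the log2 fold change was -1.36 (SE 0.25, 95% interval -1.90 to -0.82, adjusted p = 0.0439). The call held without control 2 (adjusted p = 0.0318) or DT 1 (0.0368) and was lost without control 1 (0.146), control 3 (0.191), control 4 (0.144), DT 2 (0.112), DT 3 (0.196) or DT 4 (0.0994). The replicate block also ended the call (0.0949). DESeq2 gave *Gm14085* no adjusted p.

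*Enpp3*, an ecto-enzyme that hydrolyses nucleotides, was at 393, 382, 318 and 285 CPM in control and 256.5, 199.7, 221 and 185 CPM in DT samples. All 4 DT samples were below all 4 control samples, a pattern shown by 1.87% of the tested genes. The log2 fold change of -0.67 (SE 0.18, 95% interval -1.07 to -0.27) had an adjusted p of 0.189, and by DESeq2 0.0100. Its log2 ratios were alike in the batches, -0.77 and -0.57. The difference in size between *Enpp3* and *Ada* was not tested.

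*Slc28a1*, a concentrative transporter that prefers pyrimidine nucleosides, was at 120.5, 86.2, 68.4 and 72.7 CPM in control and 75.1, 50.6, 46.2 and 16.0 CPM in DT samples. Within each batch DT lay below control, and only DT 1 reached into the control range. The log2 fold change was -0.96 (SE 0.28, 95% interval -1.57 to -0.34, adjusted p = 0.212). *Slc29a1*, the equilibrative transporter, was at 5.81, 1.49, 16.4 and 20.97 CPM in control and 7.59, 13.3, 21.5 and 21.03 CPM in DT samples. Its values were not lower after DT, with a log2 fold change of 0.49 (95% interval -0.17 to 1.16, adjusted p = 0.406).

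*Pnp* was at 240.2, 101, 190.3 and 172 CPM in control and 183, 139, 168 and 136 CPM in DT samples. The DT values lay inside the control range, and the log2 fold change was -0.18 (95% interval -0.71 to 0.34, adjusted p = 0.704). This interval does not include a fall of the size of *Ada*. *Adk*, the kinase that returns adenosine to the nucleotide pool, was at 24.7, 14.9, 77.3 and 55.3 CPM in control and 33.8, 31.0, 65.1 and 45.0 CPM in DT samples, with a log2 fold change of 0.09 (95% interval -0.45 to 0.63, adjusted p = 0.882).

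*Xdh* was at 457, 509.8, 178 and 116 CPM in control and 259.9, 118, 135 and 136 CPM in DT samples. The 2 control samples of batch a stood far above the rest, and in batch b the groups overlapped. Over both batches the log2 fold change was -0.74 (SE 0.31, 95% interval -1.42 to -0.05, adjusted p = 0.260). The log2 ratio was -1.36 in batch a and -0.12 in batch b, and the interaction had an unadjusted p of 0.0371 that did not hold after adjustment (1.00). Over all genes no interaction passed an adjusted p of 0.05 in edgeR, and 223 had an unadjusted p under 0.05.

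The other genes of nucleotide metabolism were taken from a list of 77, of which 42 could be tested. None passed an adjusted p of 0.05 in edgeR, where 5 were lower and 5 higher at an unadjusted p under 0.05, as were 8.44% and 8.82% of all tested genes. None passed in DESeq2 either, which gave no adjusted p for 20 of them. Their median log2 fold change was 0.17, against 0.0041 for all tested genes. In surface nucleotide hydrolysis, with the members left out, the 2 genes farthest from 0 were *Entpd8*, which cuts nucleoside triphosphates (-0.72, adjusted p = 0.212), and *Enpp1* (0.18, adjusted p = 0.781). *Slc28a3*, the third concentrative transporter, was at -0.33 (adjusted p = 0.487), and *Dpp4*, whose human product binds ADA, was at -0.61 (adjusted p = 0.232).

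In purine breakdown, with the members left out, the 2 genes farthest from 0 had opposite signs, with *Mtap*, which salvages methylthioadenosine, at 1.17 (adjusted p = 0.172) and *Gda*, guanine deaminase, at -0.60 (adjusted p = 0.265). All 5 tested salvage genes, *Adk* among them, had log2 fold changes above 0, with a median of 0.28, *Hprt* at 0.41 (adjusted p = 0.339) and *Dguok* at 0.40 (adjusted p = 0.359). In purine synthesis de novo 10 of 11 tested genes were above 0, with a median of 0.43, *Paics* at 0.80 (adjusted p = 0.227) and *Impdh2* at 0.79 (adjusted p = 0.222), where 50.5% of all tested genes were above 0. The crypt and cycling cell genes lay on the same side, with 8 of 8 above 0 and a median of 0.33, and their part in these values was not tested. The 4 tested cytosolic and mitochondrial nucleotidases had a median of 0.26, with *Nt5c* at 0.41 and *Nt5m* at 0.30.

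In the remaining roles no gene passed 0.2. The 8 tested pyrimidine genes had a median of -0.05, with *Dpyd* at -0.61 (adjusted p = 0.232) and *Uck2* at 0.52 (adjusted p = 0.354). Of 3 urate transporters *Slc2a9* was at -0.57 and *Slc17a4* at 0.31, and of 3 tested receptors *P2rx4* was at -0.46 and *Adora2b* at -0.31.

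**Figure D2:**
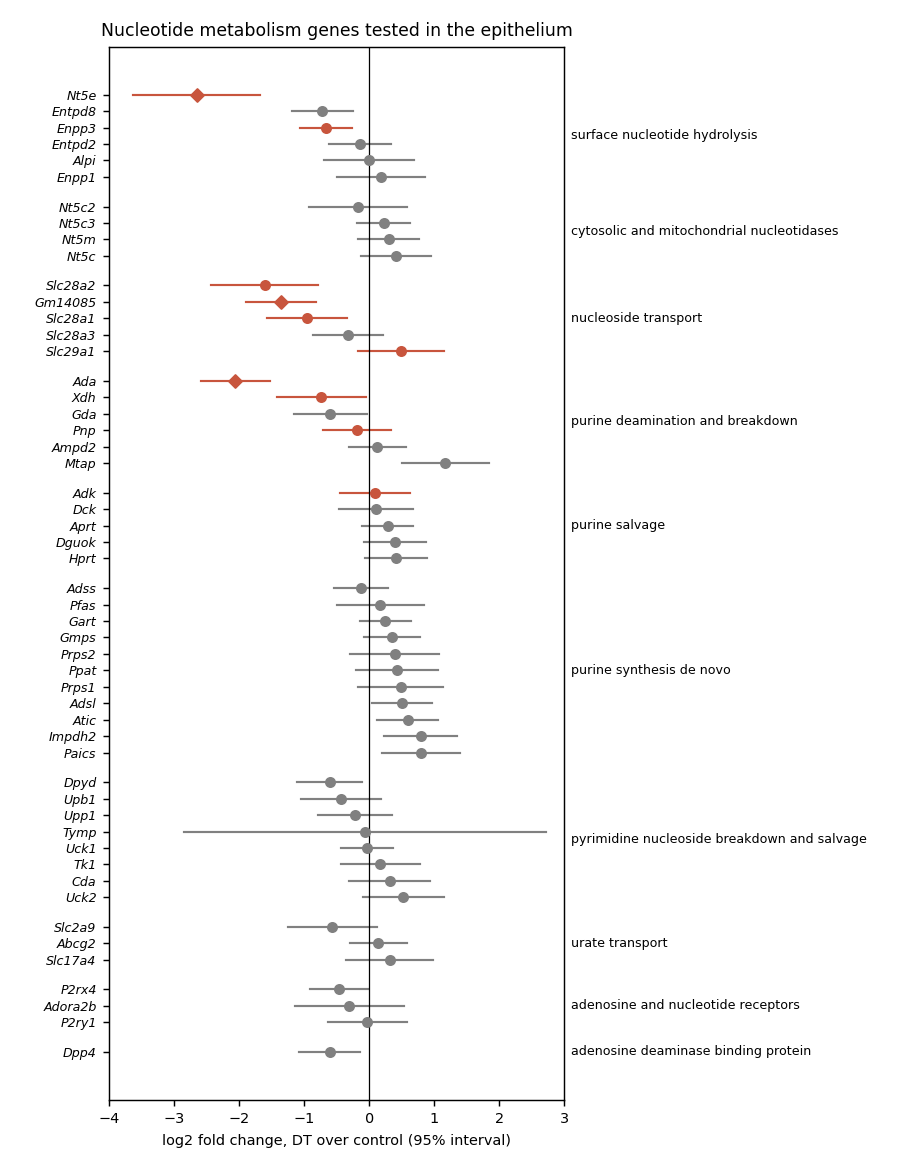
Log2 fold change of DT over control (horizontal axis, 0 marked) with its 95% interval for the 52 tested genes of nucleotide metabolism, grouped by role; the 10 genes described here are red, others grey, and diamonds passed an adjusted p of 0.05. *Nt5e*, *Ada* and *Gm14085* are the 3 diamonds, and 10 of 11 genes of purine synthesis lie right of 0.

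Among the 8 samples, the 5 genes whose log2 CPM, after subtraction of the batch mean, was most like that of *Ada* were *Jade1* (Pearson's r = 0.994), *Enpp3* (0.986), *Foxo1* (0.984), *Mgat4a* (0.980) and *Acot12* (0.973). *Nt5e* ranked 36 (0.944), *Slc28a2* 63 (0.927) and *Gm14085* 140 (0.894). These values describe samples that share the contrast and batches.

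Other lists moved in the same samples. All 5 tuft cell markers fell at an adjusted p of 0.05, with a summed level of 56.8 to 86.9 CPM in control and 5.25 to 12.7 CPM in DT samples, and their defining gene *Dclk1* had a log2 fold change of -3.21. Of 5 Paneth cell markers 2 fell at 0.05 and 4 at 0.2, with a summed level of 1098 to 3180 CPM in control and 297 to 738 CPM in DT samples. Of 9 villus tip enterocyte genes that were not members, *Clca4a* (-1.99) and *Ptprr* (-1.05) fell at 0.05 and *Klf4* at 0.2 (-0.75, adjusted p = 0.190). All 9 were below 0, while their summed level overlapped, at 8065 to 12168 CPM in control and 6325 to 10762 CPM in DT samples. No goblet marker of 6 passed 0.05 in edgeR, and *Fcgbp* fell at 0.2 (-0.89, adjusted p = 0.192). No immune marker of 9 passed 0.2 in edgeR. At an unadjusted p under 0.05, 3 goblet markers and 1 immune marker were lower. All 6 goblet and all 9 immune markers were below 0, with medians of -0.54 and -0.61. No mesenchymal marker passed the filter on low counts. Of 12 general enterocyte genes 10 were below 0, with a median of -0.35 and 4 lower and 1 higher at an unadjusted p under 0.05, and *Slc15a1*, the peptide transporter, fell at 0.2 (-0.98, adjusted p = 0.137), while their summed level was 36410 to 55083 CPM in control and 32414 to 54084 CPM in DT samples. Of 8 crypt and cycling cell genes *Birc5* rose at 0.2 (0.83, adjusted p = 0.177), and their summed level was 692 to 1198 CPM in control and 983 to 1579 CPM in DT samples. The part of these cells in the change of *Ada*, *Nt5e* and *Gm14085* was not tested, and in such bulk samples fewer cells of a type and less RNA per cell cannot be told apart.

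In the single cells the genes were placed by cell class. Of 12346 wells on plates matched to a sample, 2347 passed the filters of 400 to 8000 UMIs and at least 250 genes, and clustering without the genes of nucleotide metabolism gave 24 clusters. The 17 epithelial-like clusters held 1785 cells from 8 mice, the 4 mesenchymal-like clusters 296 cells, the 2 immune-like clusters 202 cells and 1 unnamed cluster 64 cells. Only 60 of the epithelial-like cells came from the EPCAM singlet gate, 485 from the EPCAM and PDGFRa doublet gate, 99 from the NT5E and PDGFRa doublet gate and 599 from the PDGFRa singlet gate, so these cells were not an even sample of the epithelium.

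The mesenchymal-like sums came from only 3 mice, A (6 cells), B (99 cells) and C (186 cells), which also gave epithelial-like sums. The first test had no term for the mouse and so ignored this pairing. Against mesenchymal-like cells, summed per mouse and tested with edgeR, 26.6% of 5629 genes were higher and 24.7% lower in epithelial-like cells at an adjusted p of 0.05. *Slc28a1* (0 UMIs in 296 mesenchymal-like cells, which allows up to 8.12 CPM by 3 counts; adjusted p = 6.1e-04), *Pnp* (log2 fold change 2.12, adjusted p = 0.0013) and *Xdh* (2.11, adjusted p = 0.0016) were higher, and *Slc29a1* was lower (-6.31, adjusted p = 6.1e-10). With the mouse as a block, *Ada* (6.47, adjusted p = 3.7e-08), *Slc28a2* (5.44, adjusted p = 7.2e-06) and *Enpp3* (2.77, adjusted p = 0.0048), which without it had an adjusted p of 0.0675, 0.0729 and 0.0689, were also higher, as were *Nt5e* and *Gm14085*, which had no UMI in mesenchymal-like cells. Without mouse A *Pnp* (adjusted p = 0.124) and *Xdh* (0.0906) did not pass, nor without mouse B (0.0629 and 0.052), nor *Xdh* without mouse C (0.0586). *Adk* did not differ beyond the spread (0.18, 95% interval -0.96 to 1.31, adjusted p = 0.817).

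*Slc29a1* stood apart from the other transporters. It had 46 UMIs in mesenchymal-like cells (124 CPM, counting interval 91.1 to 166), in 11.1% of cells, and 3 UMIs in all epithelial-like cells, of which 2 were in goblet-like cells and 1 in cycling-like cells. No villus tip-like cell of 255 held a UMI, which allows a share of cells with a UMI of up to 1.44% (exact binomial interval) and sets no limit on cells expressing the gene. Against immune-like cells *Pnp* (3.42, adjusted p = 2.2e-04), *Xdh* (3.48, adjusted p = 1.9e-04), *Slc28a1* (adjusted p = 0.0060), *Adk* (0.0020) and *Enpp3* (0.0159), the last 3 with no UMI in 202 immune-like cells, were higher, where 26.5% of genes were. *Nt5e* had 14 UMIs in immune-like cells (88.0 CPM, counting interval 48.1 to 148), and with the mouse as a block it was lower in epithelial-like cells (-7.37, adjusted p = 0.0056), while without the block the value was -0.44 (adjusted p = 0.832). The immune-like sums came from mice E and G, whose epithelial-like cells held 0 UMIs of *Nt5e* and were villus tip-like in 2.38% and 2.26%, against 23.8% in mouse B, so the blocked value depends on the prior count and is no bound. Without mouse G, *Pnp* (adjusted p = 0.0818), *Xdh* (0.106), *Adk* (0.07) and *Slc28a1* (0.0825) did not pass against immune-like cells, without mouse E *Adk* (0.0736) and *Slc28a1* (0.0774) did not, and without mouse A *Enpp3* (0.0559) did not. Intervals and limits on counts cover counting error only.

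**Figure D3:**
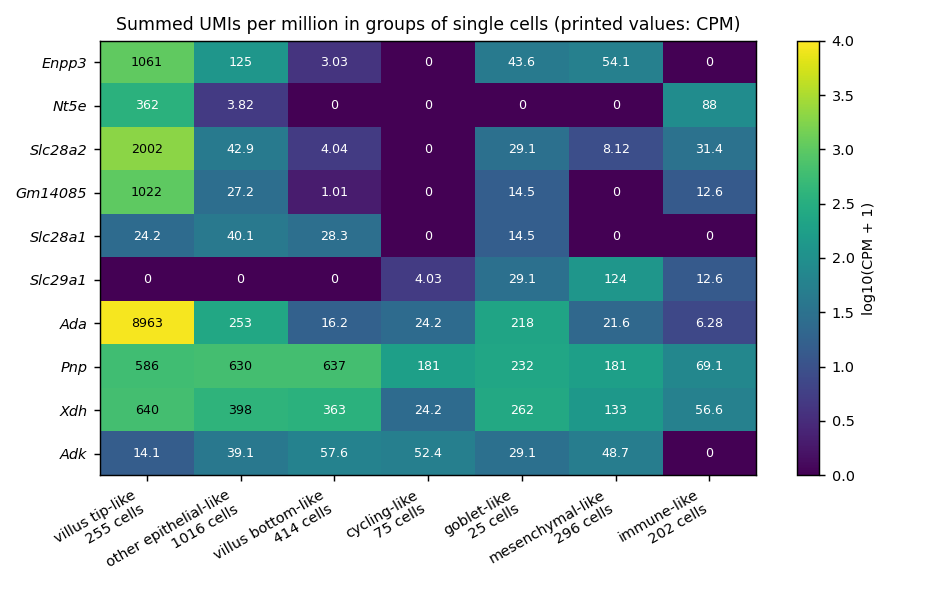
CPM of each of the 10 genes (rows) summed over the cells of 7 groups (columns, with numbers of cells); colour is log10(CPM + 1) and each box prints the CPM. *Ada*, *Nt5e*, *Slc28a2*, *Gm14085* and *Enpp3* are brightest in villus tip-like cells, *Slc29a1* in mesenchymal-like cells.

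Within the epithelium, clusters 5 and 10 (255 cells) carried villus tip enterocyte markers and are called villus tip-like. As a description of clusters with no test, they held 12.7% of epithelial UMIs but 88.7% of those of *Ada* (95% exact interval 87.8% to 89.5%), 95.7% of *Nt5e*, 91.2% of *Slc28a2*, 89.6% of *Gm14085* and 66.2% of *Enpp3*. The shares of *Xdh* (20.7%), *Pnp* (12.6%), *Slc28a1* (9.60%) and *Adk* (4.35%, 95% exact interval 1.77% to 8.75%) were far lower. That of *Xdh* was above 12.7% and that of *Adk* was below it. The NT5E and PDGFRa doublet gate sorted on the product of *Nt5e*, and its plate came from mouse B. Mouse B gave 140 of the 255 villus tip-like cells and 93 of their 179 *Nt5e* UMIs. The part of this gate in the shares was not tested. *Ada* was at 8963 CPM in villus tip-like cells, with UMIs in 90.6% of cells, and at 16.2 CPM in 414 villus bottom-like cells, with UMIs in 3.38% of cells; in immune-like cells 0.495% of cells held an *Ada* UMI, at a median of 661.5 UMIs against 1524 in villus tip-like cells.

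The contrast was seen within each of the 5 mice with at least 5 villus tip-like cells. *Ada* was at 12080, 6635, 11609, 14712 and 2718 CPM in villus tip-like cells of mice A, B, C, D and H and at 82.9, 109.8, 322, 670.1 and 6.41 CPM in their other epithelial-like cells. *Slc28a2* was at 1510 to 3345 CPM in villus tip-like and 4.81 to 136 CPM in other epithelial-like cells, and *Enpp3* at 151 to 2099 against 20.8 to 285 CPM. *Nt5e* had no UMI in either of these groups in mouse H, which had 5 villus tip-like cells. Mouse F had none and mice E and G had 3 each.

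The 4 genes that lay lowest after DT were the 4 with the largest villus tip-like share. Across 7665 genes in both tables, 53 other genes with over 50% of epithelial UMIs in villus tip-like cells had a median log2 fold change after DT of -0.67, with 84.9% below 0, against 0.0014 and 49.8% for the 7603 other genes at or under 50%. The villus tip-like clusters were named from a list that held *Clca4a* (-1.99) and *Ptprr* (-1.05), which fell after DT. Only the members were left out here, not the genes of that list, so these values are a description and no independent support. The 5 members over 50% had a median of -1.61 and 4 members at or under it -0.46, with *Slc29a1* left out for its 3 UMIs. *Entpd8* (44.3% villus tip-like, -0.72) and *Slc17a4* (45.2%, 0.31) had like shares and values on either side of 0, neither of which passed.

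**Figure D4:**
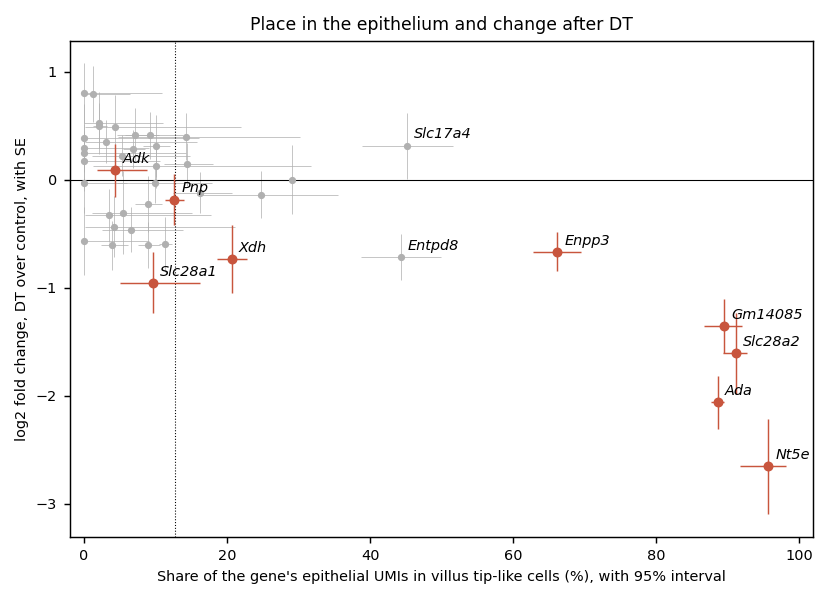
Share of a gene's epithelial UMIs found in villus tip-like single cells (horizontal axis, percent, 95% interval) against log2 fold change of DT over control (vertical axis, SE) for genes of nucleotide metabolism with at least 20 epithelial UMIs; the dotted line is the share of all epithelial UMIs, 12.7%. *Ada*, *Nt5e*, *Slc28a2* and *Gm14085* lie at lower right, above 88% and below -1.

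In the LCM samples of stroma, no gene of 13489 passed an adjusted p of 0.05 (0% of genes) in limma for tip over crypt, tip over bottom or bottom over crypt. At an unadjusted p under 0.05, 78 genes were higher and 333 lower at the tip than in the crypt, 259 higher and 964 lower at the tip than at the bottom, and 187 higher and 144 lower at the bottom than in the crypt. TPM values were scaled to ppm after removal of genes highly expressed in enterocytes, *Ada* and *Enpp3* among them, whose ppm are given on the same scale, and *Xdh* was not analysed here. The removed genes made up 4.97% to 44.7% of a sample and the summed level of 11 general enterocyte genes was 4453 to 87908 ppm, while 7 mesenchymal markers summed to 75.9 to 1819 ppm, so epithelial transcripts were present in every zone and their part in the values of the 9 measured genes was not tested.

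*Ada* was at 1823, 504, 2428, 25.7 and 420.4 ppm at the villus tip of mice 1 to 5 and at 1450, 166, 60.7, 0 and 7.90 ppm at the villus bottom. It was higher at the tip in 5 of 5 mice, with a log2 fold change of 3.59 (SE 1.01, adjusted p = 0.249). Crypt values of 6123, 2.84 and 184 ppm in 3 mice spanned the whole range. *Enpp3* was also higher at the tip than at the bottom in 5 of 5 mice (log2 fold change 1.87, adjusted p = 0.48), at 219, 164, 89.2, 23.9 and 163 ppm against 212, 68.7, 12.98, 13.3 and 4.38 ppm. *Slc28a2* was higher in 4 of 5 mice (2.01, adjusted p = 0.616), and *Nt5e* in 3 of 5 (0.82, adjusted p = 0.778). Against the crypt each was higher at the tip in 1 of 3 mice, with log2 fold changes of 0.93 for *Slc28a2* and -0.40 for *Nt5e* (adjusted p = 1.00 for both). Their means over mice were higher in the crypt, at 236 against 67.3 ppm for *Slc28a2* and 89.9 against 26.4 ppm for *Nt5e*, where the crypt of mouse 1 was at 659 and 265 ppm.

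*Pnp* was higher at the tip in 0 of 5 mice (log2 fold change -1.01, adjusted p = 0.669), and its overlapping copy *Pnp2*, with which it may share reads, in 1 of 5. *Gm14085*, *Slc28a1*, *Slc29a1* and *Adk* were higher in 2 to 3 of 5 mice, with log2 fold changes from -0.65 to 0.54 and adjusted p of 0.862 to 0.980. In zone order from crypt to tip the median of *Ada* was 184, 60.7, 56.6 and 504 ppm, that of *Enpp3* was 60.2, 13.3, 55.2 and 163 ppm, and that of *Adk* was 158, 60.6, 155 and 74.6 ppm. The ranges of neighbouring zones overlapped for all 3.

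**Figure D5:**
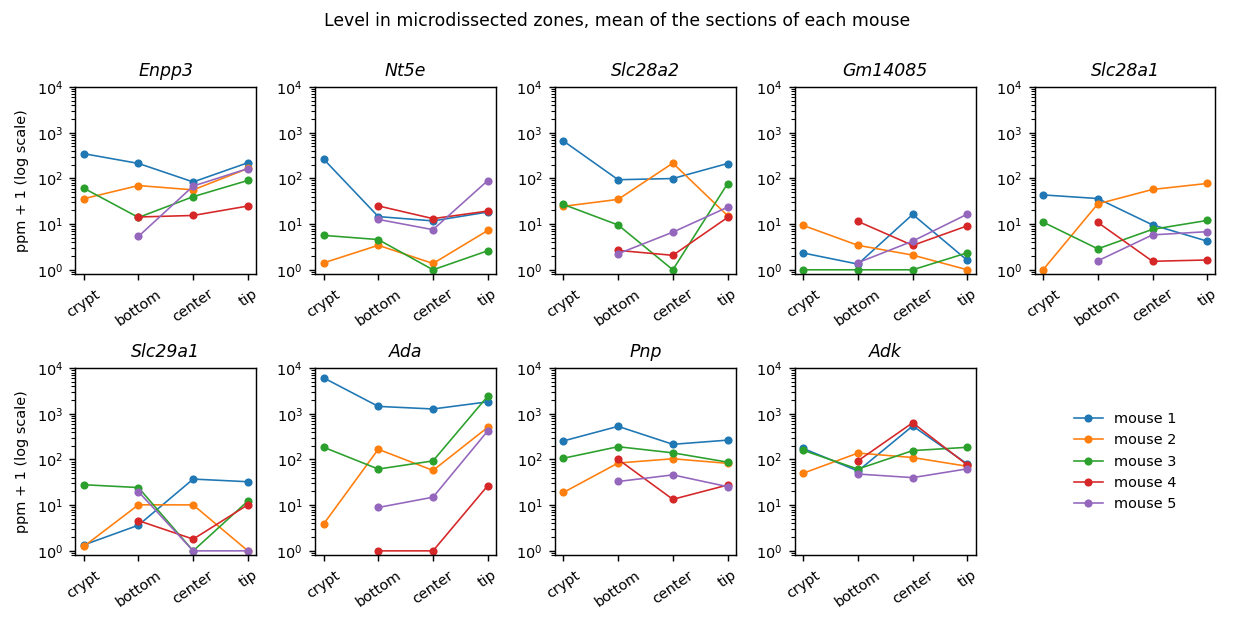
Level in ppm + 1 (log axis) of 9 of the genes in 4 LCM zones (horizontal axis), with 1 line per mouse for 5 mice, of which 3 had crypt samples. For *Ada* and *Enpp3* the tip point of each mouse lies above its villus bottom point, while some lines dip at the center. Mouse 1 is also high in the crypt.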

How the data were processed

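Epithelial cells of the jejunum, LCM stroma and sorted single cells were sequenced, and every value was recomputed from the deposited tables. The authors made UMI counts per gene for the epithelial samples (mcSCRBseq) and single cells (MARS-seq) by running zUMIs against GRCm38, and deposited the raw counts, using bcl2fastq 2.15.0.4 per the submitters' processing notes. The authors made the TPM values of the LCM samples (SMARTseq v4) with kallisto and sleuth on coding transcripts. TPM keeps no depth. Reads of *Slc28a2* and *Gm14085* can be split by such counting. Of the 1313 words of 60 bases in the longest *Pnp2* transcript, 385 also occurred in *Pnp*, but 0 of 441 in its last 500 bases. Reads of *Pnp* and *Pnp2* can therefore be split only where they cover the shared stretches.

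Epithelial counts were tested with edgeR 4.0.16 (R 4.3.3, TMM, robust quasi-likelihood test of the earlier edgeR versions, batch as a term) for genes over 1e-05 of the UMIs in at least 2 samples, with Benjamini-Hochberg adjustment over all tested genes. CPM used the UMIs of tested genes and the TMM factors. Batches a and b follow the header of a supplementary table of the study. DT and control samples of equal number were checked for pairing: their deviations from the group means correlated at 0.604, 0.409, 0.652 and 0.584. Within batches the correlations were -0.143 and -0.0648, so no pairing beyond the batch was seen. LCM values were scaled to ppm, averaged over the sections of a mouse and zone as log2(ppm + 1), filtered at a zone mean above 5 ppm and tested with limma 3.58.1, with the mouse as a block because zones came from the same animals. Of 487 genes that made up 50% of control UMIs, 375 were removed before scaling. Single cells were clustered with Seurat 5.3.0 (11 components, resolution 2), named from marker lists where a marker was detected in 10% of a cluster's cells, summed per mouse and class (at least 5 cells) and tested with edgeR. Doublets were not called or removed, because several gates selected cell pairs on purpose. A plate of 352 wells matched no sample and was not used. Promoters and coding bases came from RefSeq and GENCODE. DESeq2 1.42.0 and other settings were run as alternatives. Each test was tested on simulated data.

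The 10 genes and all lists were chosen with earlier results of these data known. All 10 are named, and of the other genes of a role those past 0.05 or else the 2 with the largest change. Where nothing says more, p-values measure the spread between these mice.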

Additional observations from a re-analysis of the deposited data

Results flagged for a closer look

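Of 50 groups of 4 or 5 values checked, 11 had a highest or lowest value set apart from the rest by Dixon's 95% criterion. Chance flags about 1 in 20 only where values are normally distributed. CPM and ppm were used without a log, so the count of 11 is not read as an excess. In the DT epithelium, *Xdh* was at 259.87 CPM in sample 1, against 135.86 CPM in the nearest sample. Mouse 1 of the LCM samples stood apart for *Ada* at the villus bottom (1449.5 ppm, nearest 166.35 ppm) and center (1272.4 ppm, nearest 92.037 ppm), for *Gm14085* at the center (15.314 ppm), for *Slc29a1* at the center (36.211 ppm) and for *Pnp* at the tip (263.94 ppm). Mouse 2 stood apart for *Slc28a1* at the center (56.329 ppm) and tip (76.519 ppm), mouse 3 for *Adk* at the tip (183.67 ppm), mouse 4 for *Gm14085* at the bottom (10.451 ppm) and mouse 5 for *Nt5e* at the tip (88.588 ppm). The cause was not tested.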

How the results depend on the processing

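The count of 32 genes called after DT became 143 with DESeq2, 635 with no filter on low counts, 1 with no batch term, 3 with the replicate block, 0 within batch a and 5 within batch b, and 3 to 41 with 1 sample left out; no gene differed between batches, but 43 did with no filter. The cause was not tested. *Ada*, *Nt5e* and *Gm14085* stayed below 0 under every alternative run, but none passed with no batch term or within a batch, and *Gm14085* could not be tested within batch a. Added after seeing the data, the fit of edgeR version 4 gave *Gm14085* an adjusted p of 0.0652. *Adk* after DT was -0.023 with no batch term, -0.28 within batch b and -0.067 to 0.32 with 1 sample left out, and *Pnp* -0.39 to 0.065. In single cells, 5281 calls became 3446 with the replicate block (the mouse) and 3315 to 5487 with 1 mouse left out, the lowest without mouse C; in the replicate block *Slc28a2* and *Gm14085* were at -1.10 and -1.20 over immune-like cells, against 3.46 and 3.92, and those immune-like sums came from mice E and G, with few villus tip-like cells. *Adk* over mesenchymal-like cells was -0.075 with at least 20 cells a sum, -0.93 with cells of 200 UMIs and -0.84 to 0.37 with 1 mouse left out. Leaving out plates of sorted doublets, added after seeing the data, ended no call of a member.

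In the LCM data no gene passed under any alternative. Over the alternatives, tip over crypt was 2.06 to 6.08 for *Ada* and 0.13 to 2.07 for *Slc28a2*, and tip over bottom 1.11 to 2.35 for *Enpp3*. Tip over crypt, *Nt5e* was at 0.58 with no replicate block and *Gm14085* at -0.25 as log2 of the mean of sections, and tip over bottom *Slc28a1* was at -0.032. With 1 mouse left out, tip over crypt ranged from -1.63 to 0.63 for *Nt5e*, -0.35 to 0.80 for *Gm14085*, -1.62 to 2.43 for *Slc28a1*, -0.67 to 1.91 for *Slc29a1*, -0.22 to 1.66 for *Pnp*, -0.61 to 0.21 for *Adk* and -0.10 to 1.32 for *Enpp3*. Tip over bottom ranged from -0.21 to 1.11 for *Gm14085*, -0.17 to 1.04 for *Slc28a1*, -1.30 to 0.26 for *Slc29a1* and -0.13 to 0.35 for *Adk*. *Ada* stayed above 0 in both. TPM gives no depth, so the precision of single LCM values is unknown.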
